A study of Mus musculus with 12 samples.

Results

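The 10 genes described here are targets of the transcription factor p53 that promote cell death or restrain the survival kinase Akt: the receptor genes Eda2r, Fas and Tnfrsf10b, the mitochondrial pathway genes Bax, Bbc3 and Pmaip1, the effectors Perp, Aen and Trp53inp1, and the Akt repressor Phlda3. They were taken by symbol from a given list, and all 10 were found among the 31091 genes of the deposited P3 table. The values come from granule cell progenitors at postnatal day 3 (P3), cells that still divide before they become cerebellar granule neurons. One group was labelled control with the genotype WT and the other carried a conditional knockout (cKO) of Znhit3, with 3 libraries each. The series also lists 6 samples at P6, which were not analysed here. The sources used here give neither the Cre driver nor the number and sex of the animals behind a library, so p-values measure the spread between these libraries, which may be partly technical.

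As background, p53 is held low in unstressed cells by Mdm2 and is stabilised by DNA damage or by disturbed ribosome assembly. It then raises genes that stop the cell cycle and genes that kill the cell. The killing branch runs through surface receptors that recruit caspase-8, and through mitochondria, where BH3-only proteins release Bax from the survival proteins Bcl-2, Bcl-xL and Mcl-1 so that the outer membrane becomes permeable. In the developing cerebellum, progenitors are known to die readily through the mitochondrial branch after genotoxic stress. Znhit3 helps to assemble the box C/D class of small nucleolar ribonucleoproteins, which guide modification of ribosomal RNA.

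The P3 libraries held between 29119803 and 52961445 counted reads. Znhit3 left 47.8% of its control level in the cKO libraries, and its groups did not overlap (two-sided exact permutation p = 0.1, the smallest that 3 against 3 allow). The 10 markers chosen for granule progenitors were all measured, with Atoh1, the factor that specifies these cells, between 35.4 and 41.3 FPKM in control and between 32.8 and 37.0 FPKM in cKO. FPKM is the number of fragments scaled to gene length and to the counted reads of the library. Every difference given is the cKO mean less the control mean of log2(FPKM + 1), a scale that shrinks changes of low genes. Adjusted p-values come from limma over the 13538 genes whose mean reached 1 FPKM. A gene was called at an adjusted p under 0.05. Libraries were made from bulk cells, so fewer cells of a type and less RNA per cell cannot be told apart.

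RefSeq start windows (GRCm38.p6, 250 bases before to 50 after a gene start) were found for 6 of the 10 genes, Phlda3, Bbc3, Bax, Aen, Fas and Eda2r. Those of Phlda3 and Eda2r are shown up to the start because these genes had the largest differences, that of Bax because it holds a p53 half-site, and a short stretch of Aen for the same reason. Capitals mark the half-site, the p53 consensus decamer, searched without mismatch. It reads the same on both strands.
Phlda3: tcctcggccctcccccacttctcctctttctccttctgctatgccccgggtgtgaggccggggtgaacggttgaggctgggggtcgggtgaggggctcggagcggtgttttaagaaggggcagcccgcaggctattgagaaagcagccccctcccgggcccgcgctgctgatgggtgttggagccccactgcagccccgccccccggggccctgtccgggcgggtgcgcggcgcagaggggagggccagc
Eda2r: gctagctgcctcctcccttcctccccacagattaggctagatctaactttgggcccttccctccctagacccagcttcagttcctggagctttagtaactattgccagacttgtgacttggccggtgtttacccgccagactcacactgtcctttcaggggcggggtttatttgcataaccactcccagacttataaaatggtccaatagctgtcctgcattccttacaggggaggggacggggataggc
Bax: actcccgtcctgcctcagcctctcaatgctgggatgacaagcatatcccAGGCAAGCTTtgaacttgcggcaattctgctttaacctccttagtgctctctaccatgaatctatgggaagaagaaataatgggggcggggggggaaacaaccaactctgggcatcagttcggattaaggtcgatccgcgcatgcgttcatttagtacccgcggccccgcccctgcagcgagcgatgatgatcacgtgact
Aen: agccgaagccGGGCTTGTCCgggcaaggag
These stretches are chr1:135765835-135766084 (plus strand), chrX:97377210-97377459 (minus strand), chr7:45466899-45467148 (minus strand) and chr7:78895927-78895956 (plus strand). The half-site of Bax, AGGCAAGCTT, begins at position -201 from the gene start. That of Aen, GGGCTTGTCC, begins at position 11 from one annotated start and at position -121 from the other. The decamer was thus in the windows of 2 of 6 matched members, against 9.55% of the 27025 genes with a window. The 5 windows of Phlda3, Bbc3 and Eda2r and that of Fas held no exact decamer, which says nothing of other places in these genes or of inexact sites.

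Death-promoting p53 targets were higher in the cKO libraries with few exceptions. Of the 10 genes 8 reached the expression filter, and 7 of these rose. Over all tested genes 13.4% were called higher and 5.74% lower. No member was called lower by limma, at an unadjusted p under 0.05 by the same fit, or by voom after adjustment, although by voom 1 member, Perp, was lower at an unadjusted p under 0.05, as 1 was in the limma fit with quantile normalization. The 7 were Phlda3, Eda2r, Pmaip1, Bbc3, Trp53inp1, Aen and Bax, with differences from 0.20 to 1.08, and Perp did not pass the test. The median over the 8 tested members was 0.60, against 0.03 over all tested genes. The members were chosen with earlier results of these data known, so these comparisons describe them and do not test them. All 3 cKO libraries lay above all 3 control libraries in these 7 members, as they did in 27.3% of tested genes. With Tnfrsf10b this held for 8 of the 10 members, against 15.8% of all genes in the table. Summed over the 10 genes, the level was 56.7, 63.2 and 59.1 FPKM in control replicates 1 to 3 and 83.1, 88.7 and 84.3 FPKM in cKO replicates 1 to 3. Without Bax, which made the largest part of that sum, it went from a mean of 33.8 ± 2.5 to 55.4 ± 2.3 FPKM (SD, n = 3).

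**Figure D1:**
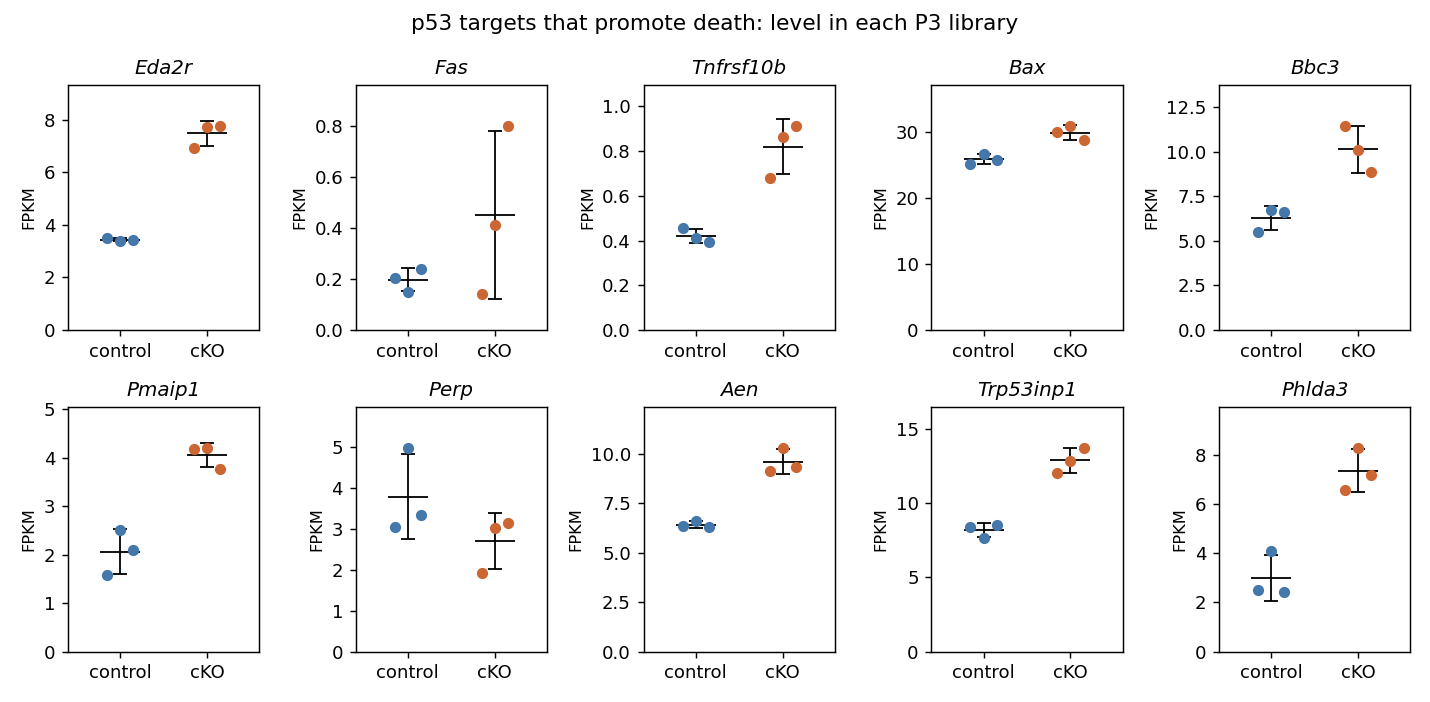
Level in FPKM (vertical axes from 0, scaled per gene) of the 10 genes in the 3 control (blue) and 3 cKO (orange) libraries; points are replicates 1 to 3 from left to right, bars mark the mean and SD. Groups overlap in Fas and Perp and are separate in the other 8.

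Eda2r (ENSMUSG00000034457, chromosome X, 96377446 to 96420822, minus strand, positions here and below being those of the deposited table) encodes a receptor of the tumour necrosis factor family for ectodysplasin A2. It measured 3.49, 3.40 and 3.42 FPKM in control replicates 1 to 3 and 6.93, 7.73 and 7.76 FPKM in cKO replicates 1 to 3. The control libraries were nearly level, and the lowest cKO library stood well above them. The mean rose from 3.43 ± 0.046 to 7.48 ± 0.47 FPKM (SD, n = 3), a difference of 0.93 ± 0.06 (SE, adjusted p = 0.00024). By signed difference, counted from the largest rise down, Eda2r ranked 15 among 13538 genes. It lies on the X chromosome, and sex-linked transcripts differed between the groups: Xist, the RNA of the inactive X chromosome, measured 50.2 to 56.4 FPKM in control and 23.7 to 24.6 FPKM in cKO. The Y-linked gene Ddx3y measured 4.92 to 5.64 FPKM in control and 10.5 to 13.8 FPKM in cKO, so every library held both transcripts. Among 467 tested X-linked genes the median difference was 0.03 and 10.9% were called higher, and no other X-linked gene had a rise as large as that of Eda2r. Sex and genotype cannot be told apart in these libraries. The part of sex in the levels of Eda2r and the other members was not tested.

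The other receptor genes among the members were scarce. Tnfrsf10b (ENSMUSG00000022074, chromosome 14, 70004921 to 70021860, plus strand) encodes the mouse receptor for the death ligand TRAIL. It measured 0.455, 0.409 and 0.395 FPKM in control and 0.680, 0.865 and 0.913 FPKM in cKO, from 101, 72 and 114 reads and from 139, 190 and 145 reads. The groups did not overlap, and the cKO mean was 1.95 times the control mean. It was under the expression filter. With no filter on low values the difference was 0.36 ± 0.08 (SE, limma adjusted p = 0.060). The authors' deposited table gives it a log2 fold change of 0.91 (adjusted p = 0.00056).

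Fas (ENSMUSG00000024778, chromosome 19, 34268066 to 34305172, plus strand), the receptor of Fas ligand, was the least abundant of the 10. It measured 0.202, 0.150 and 0.238 FPKM in control and 0.142, 0.409 and 0.799 FPKM in cKO. These values rest on 17, 10 and 26 reads and on 11, 34 and 48 reads. The first cKO library was below all controls and the other two were above them, so the groups overlapped. The exact Poisson 95% interval, which covers counting error only, was 5.49 to 19.7 reads in cKO replicate 1 and 35.4 to 63.6 reads in cKO replicate 3. The difference with no filter was 0.25 with a limma adjusted p of 0.46, and the authors' deposited table gave Fas an adjusted p of exactly 1, a value read as not tested.

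In the mitochondrial branch the scarcer genes showed the larger differences. Pmaip1 (ENSMUSG00000024521, chromosome 18, 66591604 to 66598636, plus strand) encodes the BH3-only protein Noxa, which binds Mcl-1. It measured 1.57, 2.51 and 2.09 FPKM in control and 4.18, 4.21 and 3.77 FPKM in cKO. Its mean rose from 2.06 ± 0.47 to 4.05 ± 0.24 FPKM (SD, n = 3), a difference of 0.73 ± 0.11 (SE, adjusted p = 0.0045). The spread was wider among the controls than among the cKO libraries, and the groups were separate.

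Bbc3 (ENSMUSG00000002083, chromosome 7, 16042318 to 16052130, plus strand) encodes Puma, a BH3-only protein that binds all survival members of the Bcl-2 family. It measured 5.49, 6.74 and 6.59 FPKM in control and 11.4, 10.1 and 8.84 FPKM in cKO. On average Bbc3 rose from 6.27 ± 0.68 to 10.1 ± 1.3 FPKM (SD, n = 3), a difference of 0.61 ± 0.10 (SE, adjusted p = 0.0059). The cKO libraries differed among themselves by more than the controls did, with replicate 1 highest.

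Bax (ENSMUSG00000003873, chromosome 7, 45111121 to 45116322, minus strand) encodes the pore-forming effector on which this branch converges. It was the most abundant of the 10 in every library, at 25.1, 26.6 and 25.8 FPKM in control and 30.0, 31.0 and 28.8 FPKM in cKO. The mean rose from 25.9 ± 0.75 to 29.9 ± 1.1 FPKM (SD, n = 3), which is 1.16 times the control level, with a difference of 0.20 ± 0.04 (SE) and an adjusted p of 0.020. This was the smallest rise of the 7. The call was lost without control replicate 1 (adjusted p of 0.054), without control replicate 3 (0.057) and without cKO replicate 2 (0.086). The authors' deposited table gave Bax a log2 fold change of 0.16 (adjusted p = 0.085).

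Phlda3 (ENSMUSG00000041801, chromosome 1, 135693857 to 135696874, plus strand) encodes a small pleckstrin homology domain protein that competes with Akt for membrane lipids. It measured 2.50, 4.07 and 2.41 FPKM in control and 6.57, 8.30 and 7.18 FPKM in cKO. Control replicate 2 stood above the other controls, and all cKO libraries stood above it. Phlda3 thus rose from 3.00 ± 0.93 to 7.35 ± 0.88 FPKM (SD, n = 3), 2.45 times the control level. The difference was 1.08 ± 0.15 (SE, adjusted p = 0.0035) and, counted from the largest rise down, ranked 11 among 13538 genes. Without control replicate 2 the difference was 1.27 with an adjusted p of 0.0023.

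Trp53inp1 (ENSMUSG00000028211, chromosome 4, 11156431 to 11174379, plus strand) encodes a stress protein that promotes p53 phosphorylation, apoptosis and autophagy. It measured 8.43, 7.66 and 8.50 FPKM in control and 12.1, 12.8 and 13.8 FPKM in cKO. The mean rose from 8.20 ± 0.46 to 12.9 ± 0.85 FPKM (SD, n = 3), a difference of 0.59 ± 0.06 (SE, adjusted p = 0.0012). Aen (ENSMUSG00000030609, chromosome 7, 78545602 to 78560957, plus strand), a nuclease that digests DNA in dying cells, measured 6.35, 6.60 and 6.31 FPKM in control and 9.15, 10.3 and 9.33 FPKM in cKO. Aen rose from 6.42 ± 0.16 to 9.60 ± 0.63 FPKM (SD, n = 3), a difference of 0.51 ± 0.05 (SE, adjusted p = 0.0013). Both genes were tight within each group and separate between the groups.

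Perp (ENSMUSG00000019851, chromosome 10, 18720768 to 18732821, plus strand), a tetraspan membrane protein of desmosomes and an apoptosis effector, was the one tested member that did not pass. It measured 3.05, 4.98 and 3.33 FPKM in control and 1.93, 3.03 and 3.15 FPKM in cKO. The groups overlapped, with control replicate 2 high and cKO replicate 1 low. The means were 3.79 ± 1.0 and 2.70 ± 0.67 FPKM (SD, n = 3), with a difference of -0.37 ± 0.18 (SE, adjusted p = 0.18). Without control replicate 2 the difference was -0.19. Of 6 tested markers of choroid plexus and ependyma, epithelial cells that line the ventricles, 4 fell in cKO. The share called lower over all tested genes was 5.74%. The 7 markers of that list, none at 0, summed to 1347 to 1432 FPKM in control and 638 to 715 FPKM in cKO, and most of the sum was Ttr, the transthyretin gene of choroid plexus, with means of 1370 and 665 FPKM. Foxj1, the regulator of motile cilia in ependyma, measured 10.7 and 12.3 FPKM on average and did not pass the test (adjusted p = 0.34). Their part in the level of Perp was not tested.

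The order of the levels changed little. In control the order was Bax, Trp53inp1, Aen, Bbc3, Perp, Eda2r, Phlda3, Pmaip1, Tnfrsf10b and Fas. The ranges of neighbours overlapped between Aen and Bbc3, and from Perp through Eda2r and Phlda3 to Pmaip1. In cKO Bbc3 had a mean above Aen, with overlapping ranges, and Perp went from rank 5 to rank 8. Within groups, control replicate 2 gave the highest control value in 6 of the 10 genes, and cKO replicate 1 gave the lowest cKO value in 7 of them. These genes share their libraries, so such runs are not independent.

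Of the 10 genes, the authors' deposited table called 7 higher and none lower at an adjusted p under 0.05, where 11.4% of the 16021 genes in the authors' adjustment were called higher. The 7 were not the same as above: that table called Tnfrsf10b and not Bax. For Perp it gave a log2 fold change of -0.54 with an adjusted p of 0.053. Its log2 fold changes carry no added constant, which the values of the fit here do. For Eda2r it was 1.07, and for Pmaip1 it was 0.93.

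Other p53 targets were compared through 41 genes taken as a list, also chosen with earlier results of these data known. Their roles include arrest, repair and feedback, and some, such as Apaf1 and Pidd1, also have roles in cell death. Of 38 tested 19 rose, 1 fell and 18 did not pass, where 13.4% of all tested genes were called higher and 5.74% lower. The median difference was 0.24, against 0.03 over all tested genes. Cdkn1a, the inhibitor of cyclin-dependent kinases known as p21, rose from 6.58 ± 0.19 to 21.8 ± 0.57 FPKM (SD, n = 3), a difference of 1.59 where the largest among the tested death-promoting genes was 1.08. Ccng1, the cyclin G1 gene, rose by 0.72 ± 0.05 (SE), and Sesn2, a stress-induced inhibitor of mTORC1 signalling, rose from 4.05 to 7.84 FPKM. The 1 fall, named after its value was seen, was Plk3, a polo-like kinase gene, from 19.1 to 14.2 FPKM. With quantile normalization 14 rose and 1 fell, and with TPM scaling 24 rose and 1 fell, while the same 7 death-promoting genes were called under both.

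**Figure D2:**
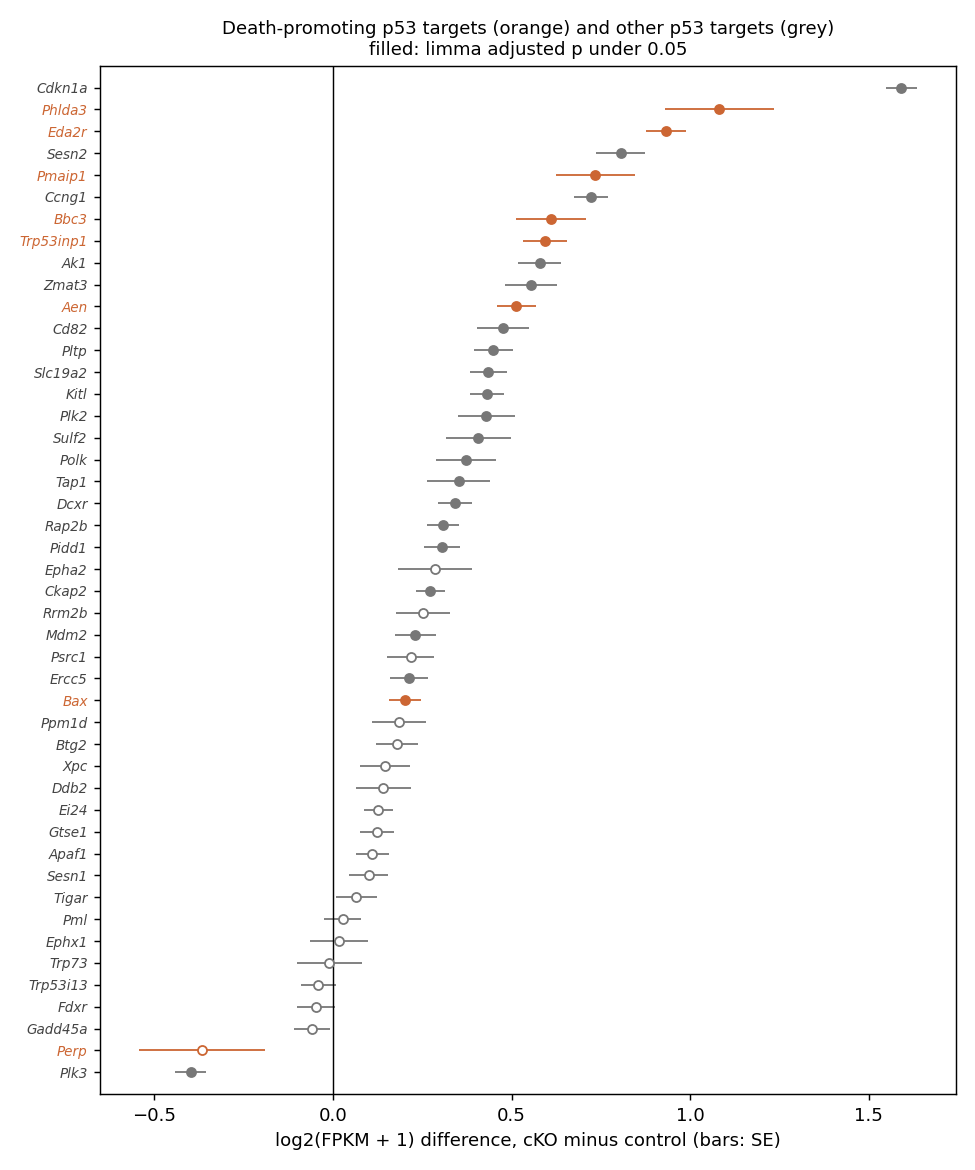
Difference in log2(FPKM + 1), cKO minus control, with SE bars, for the 8 tested death-promoting targets (orange) and 38 other p53 targets (grey), sorted by size; filled points have a limma adjusted p under 0.05. Cdkn1a lies farthest right at 1.59, Phlda3 and Eda2r follow, and Perp and Plk3 lie farthest left.

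Upstream of these genes differences were small. Mdm2, placed among the other p53 targets and named after its value was seen, rose from 10.2 to 12.2 FPKM. Its difference was 0.23 (limma adjusted p = 0.030), and its call was lost with quantile normalization (adjusted p of 0.054). Among 14 tested genes of p53 and its regulators 2 rose and 1 fell, shares near the 13.4% and 5.74% of all tested genes, with a median of 0.08 against 0.03. With TPM scaling 3 were called higher and none lower (1 lower at an unadjusted p under 0.05), and with voom 4 were called higher and 2 lower. Trp53 itself measured 36.6, 38.3 and 40.4 FPKM in control and 44.3, 41.0 and 39.3 FPKM in cKO, overlapping, with an adjusted p of 0.21. The checkpoint kinase gene Chek1 rose by 0.17, and Hipk2, whose kinase phosphorylates p53, rose by 0.21. Rpl11, a ribosomal protein that can bind and inhibit Mdm2, fell from 166 to 148 FPKM. These 3 calls were lost with quantile normalization (adjusted p of 0.11 for Chek1, 0.13 for Hipk2 and 0.21 for Rpl11) and that of Rpl11 also with TPM scaling (0.063), with no change of sign.

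Bcl-xL, the survival protein encoded by Bcl2l1, had a lower transcript level in cKO. For the counts that follow, 13.4% of all tested genes were called higher and 5.74% lower. Of 4 tested survival genes Bcl2l1 fell and the other 3 did not pass, although 1 of them, Bcl2, was higher at an unadjusted p under 0.05 and was called higher with TPM scaling and with voom. Bcl2l1 measured 28.03, 30.1 and 28.8 FPKM in control and 24.3, 23.8 and 24.5 FPKM in cKO, a difference of -0.25 ± 0.04 (SE, adjusted p = 0.0069). Per FPKM of Bax, a ratio chosen after the values were seen, Bcl2l1 stood at 1.12, 1.13 and 1.12 in control and at 0.808, 0.770 and 0.851 in cKO. Every cKO library was above every control in Bax and below every control in Bcl2l1. Separate ratios follow from these values and add no support to them. A ratio within a library does not depend on the scaling of that library. Among 7 other BH3-only and pore-forming genes, Hrk rose from 1.61 to 2.44 FPKM and Bcl2l11, which encodes Bim, rose from 4.97 to 6.24 FPKM, and 5 did not pass. Of these 5, Bad and Bok, named after their values were seen, were lower at an unadjusted p under 0.05. Bad was called lower with quantile normalization and with upper quartile scaling, and both were called lower with voom.

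Of 10 tested ligands, adaptors and brakes of the death receptors 3 rose and none fell (none lower at an unadjusted p under 0.05 or with voom), where 13.4% of all tested genes were called higher. The median was 0.17, against 0.03 over all tested genes. The number called higher was 2 with quantile normalization, 4 with TPM scaling and 5 with voom. Tnfsf10, the ligand TRAIL of the Tnfrsf10b product, rose from 0.758 to 1.42 FPKM. It is among the 3, but lay between 0.694 and 0.846 FPKM in the control libraries. It thus reached the expression filter of 1 FPKM only through the cKO libraries. Fadd, the adaptor between receptor and caspase-8, rose from 2.53 to 3.25 FPKM, and Casp8 itself by 0.34. The call of Fadd was lost with quantile normalization (adjusted p of 0.11). Fasl, the ligand of Fas, was listed at 0 in 2 of the cKO libraries and did not exceed 0.127 FPKM in any library.

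Downstream, 2 of 10 tested genes of the apoptosome, caspases and their inhibitors rose and none fell (none lower at an unadjusted p under 0.05 or with voom), where 13.4% of all tested genes were called higher. Xiap, an inhibitor of caspases, rose from 9.44 to 11.3 FPKM, and its call was lost with quantile normalization (adjusted p of 0.054). Of 12 tested genes of Akt signalling, on which Phlda3 acts, 3 rose and 1 fell: Pik3r1, a regulatory subunit of phosphoinositide 3-kinase, rose by 0.33, while Akt2 fell from 34.6 to 31.1 FPKM. The share called lower over all tested genes was 5.74%. With quantile normalization 2 of the 12 Akt signalling genes were called higher. The call of Akt2 was lost with quantile normalization (adjusted p of 0.075) and with TPM scaling (0.11).

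**Figure D3:**
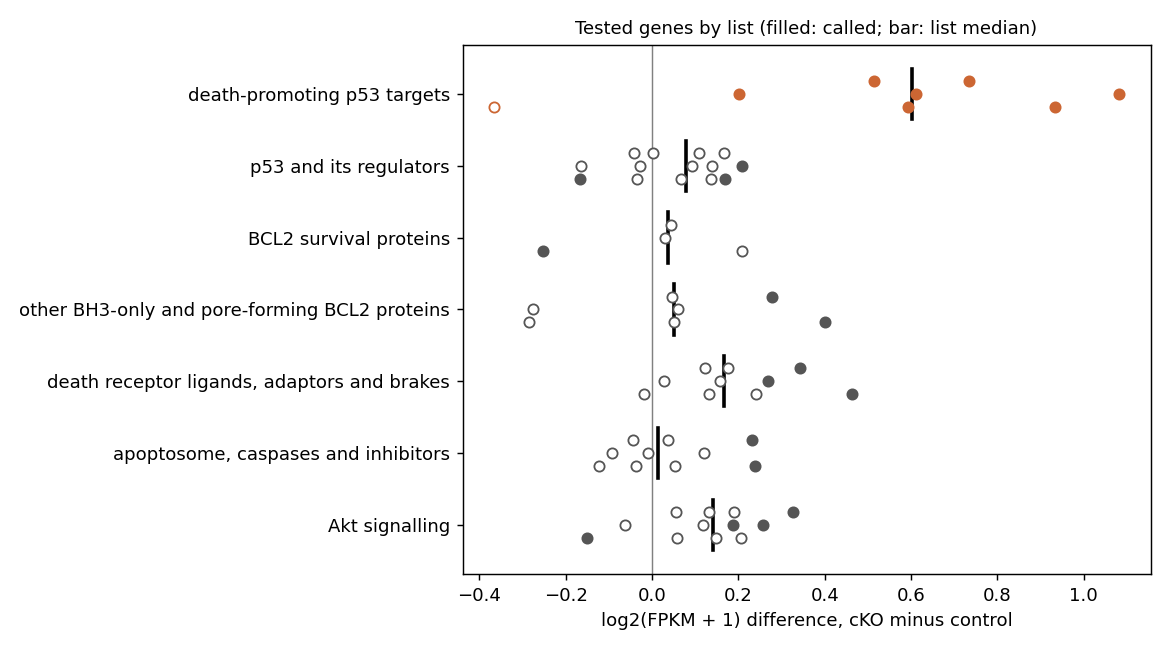
Difference in log2(FPKM + 1), cKO minus control, of each tested gene in the death-promoting targets (orange) and in 6 lists of genes around them (grey); filled points were called and black bars are list medians. The median of the death-promoting targets is 0.60, and those of the other lists lie between 0.01 and 0.17.

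Markers of several cell types moved with genotype beside these results. For comparison, 13.4% of all tested genes were called higher and 5.74% lower. The 8 endothelial markers all rose, with sums of 125 to 136 FPKM in control and 221 to 238 FPKM in cKO. Of 8 GABAergic interneuron markers 7 rose and 1 fell (sums of 98.3 to 108 and 132 to 150 FPKM), 6 of 7 mural cell markers rose (39.7 to 41.5 and 61.2 to 61.7 FPKM), 5 of 8 tested microglial markers rose (192 to 195 and 228 to 269 FPKM) and 5 of 6 tested oligodendrocyte lineage markers rose (84.4 to 93.2 and 113 to 127 FPKM). Of 9 glial markers of astrocytes and Bergmann cells 5 rose (846 to 869 and 888 to 919 FPKM), of 8 meningeal fibroblast markers 3 rose (109 to 111 and 120 to 122 FPKM), of 5 tested erythroid markers 4 rose (1210 to 1475 and 1655 to 1885 FPKM) and of 3 tested Purkinje cell markers 2 rose (7.74 to 8.91 and 10.0 to 10.6 FPKM). With quantile normalization none of the 3 Purkinje cell markers was called (1 higher at an unadjusted p under 0.05), and with upper quartile scaling 1 was, while with voom all 3 were. Of the 10 granule progenitor markers 4 fell, Mfap4, Barhl1, Pax6 and Neurod1 (sums over the 10 of 1253 to 1356 and 1015 to 1048 FPKM). The other 6 did not pass, among them Atoh1 (limma adjusted p = 0.36), Gli1 (0.83) and Mycn (0.87). At an unadjusted p under 0.05, and with voom, 7 of the 10 were lower. No marker of any list was at 0 in all libraries. The part of such cells in the levels of the death-promoting genes was not tested.

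**Figure D4:**
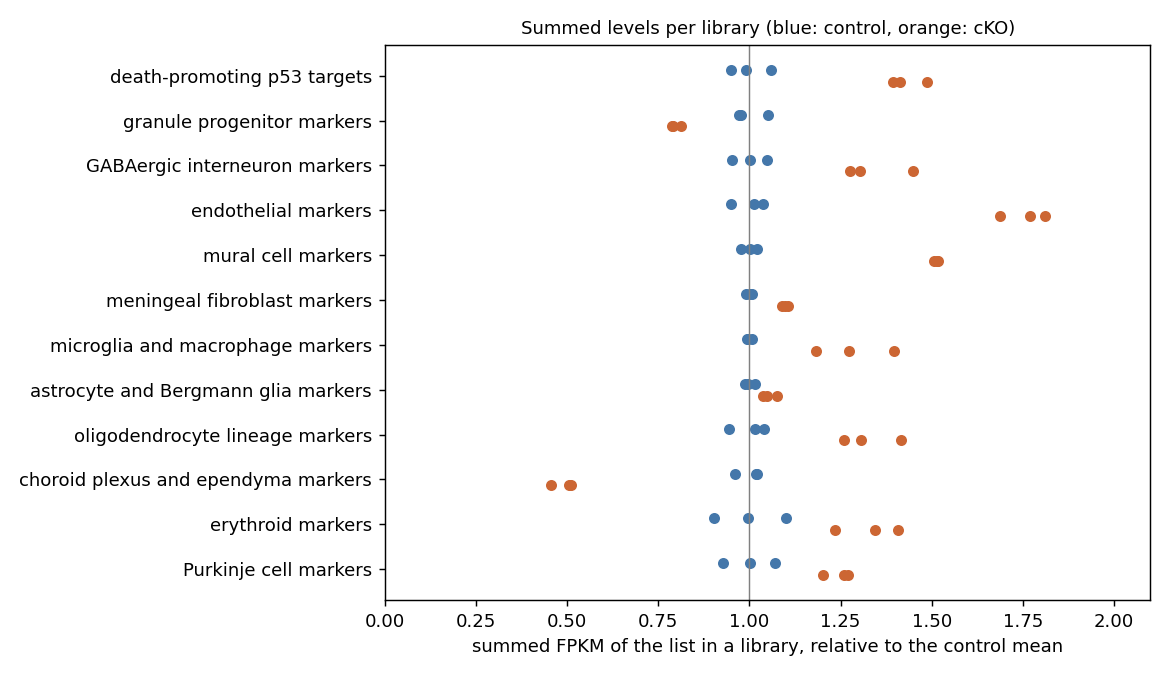
Summed FPKM of the 10 death-promoting targets and of each marker list in every library, divided by the mean of the 3 control libraries (blue: control, orange: cKO; horizontal axis from 0). The cKO libraries lie above the controls for the death-promoting targets and for 9 marker lists, and below them for granule progenitors and for the choroid plexus and ependyma list, most of which is Ttr.

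By pattern over the 6 libraries, the genes nearest to the median profile of the 8 tested members were Grap, Emilin3, Parvb, Slc35f2 and Cbln4. Nearness was the root mean square distance between log2(FPKM + 1) profiles, each centred on its own mean, and it ran from 0.024 for Grap to 0.037 for Cbln4. Among the members themselves it ran from 0.057 for Aen to 0.51 for Perp. The named genes were picked as the nearest of all tested genes outside the members, so their smaller distances follow from that choice. Grap measured 4.26, 5.15 and 4.64 FPKM in control and 7.34, 7.42 and 7.16 FPKM in cKO, and Parvb measured 5.67 to 6.41 and 9.08 to 9.50 FPKM.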

How the data were processed

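RNA of granule cell progenitors was sequenced, and 1 table of 31091 genes for the 6 P3 libraries was used. Per the submitters' processing notes, cutadapt 1.9, HISAT2 2.2.1, StringTie 2.1.6, DESeq2, edgeR and mm10 were used, with no role or order given. The sources used here do not state the annotation, the filters or whether counting used strand, so reads of overlapping genes cannot be told apart. The authors deposited FPKM values per library, and columns with the prefix ZM were taken as cKO, the one other P3 genotype of the labels. FPKM multiplied by the deposited gene length gave whole reads in every library (largest distance from a whole number 2.44e-09). The authors also deposited the mean signal per gene, the log2 fold change and its SE, the score of their test, and raw and adjusted p-values, per the file headers. The build of the deposited positions is not stated in the file, and the RefSeq windows are from GRCm38.p6. The deposited positions of the genes with a printed window differ from that build, so both sets of coordinates are not to be combined.

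Tests used limma 3.58.1 (R 4.3.3) on log2(FPKM + 1), with an intensity trend, no covariates, a mean of at least 1 FPKM and Benjamini-Hochberg adjustment over all tested genes. The fit was run on simulated data with the same added spread set for every gene, which need not match the spread of the members. Members and lists were chosen with earlier results of these data known. Named were all members, Znhit3, up to 3 called genes with the smallest p in each of 7 pathway lists or else its most abundant tested gene, and the 5 genes nearest in pattern. Some genes named by this rule are not reported here. Trp53, Mdm2, Apaf1, Pidd1, Fasl, Plk3, Bcl2, Bad, Bok, Ttr, Foxj1, Atoh1, Xist and Ddx3y were added after their values were seen. So were Mfap4, Barhl1, Pax6, Neurod1, Gli1 and Mycn. Alternatives were a pseudocount of 0.1, a minimum of 5 FPKM or none, scaling by upper quartile, quantile or TPM, no trend, array weights, a replicate block and leaving out each library, and, chosen after seeing the data, voom on recovered reads and protein-coding genes alone. P6 samples were not analysed here.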

Additional observations from a re-analysis of the deposited data

How the results depend on the processing

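The number of death-promoting targets called higher was 7 in the fit reported. Over the 17 alternatives it ranged from 6 to 7, and 6 was also the count with a minimum mean of 5 FPKM, where 6 members were tested. With 1 library left out it ranged from 6 to 7, and the member lost was Bax each time, with differences of 0.18 to 0.23 over those 6 fits. No difference of a tested member changed sign: of 134 such values 131 kept their side of the threshold, and the other 3 were those of Bax. The count of called genes behind the background share was 2590, and 1271 with no filter on low values, where 31091 genes were tested, and 1542 with a replicate block. With 1 library left out it ranged from 1207 (without cKO replicate 2) to 2195, with 1331 without control replicate 2, 1490 without control replicate 3 and 1553 without cKO replicate 3. Of called genes 70.0% were higher, against 56.8% with quantile normalization and 81.7% with TPM scaling. Pairing by replicate number was looked at after the group mean of each gene was taken off. The correlations of these deviations between same-numbered control and cKO libraries were -0.024, 0.036 and -0.097. Between libraries with unlike numbers they ran from -0.08 to 0.109. With 3 libraries per group these values do not settle whether the libraries were paired. All 7 members were called with the replicate block. The planned count tests with edgeR and DESeq2 were not run, because the deposited unit is FPKM, and voom on recovered reads called 7 members and 3718 genes. Fas, with 10 to 48 reads a library, is the member whose level counting error limits most.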
